A study of Poecilia mexicana x Poecilia latipinna and Poecilia formosa with 28 samples.

Results

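The 298 genes described here stood higher in the liver of the clonal Amazon molly, Poecilia formosa, than in the liver of F1 hybrids. In brain and in ovary the mean levels of the 2 groups lay within a set ratio. The 298 were chosen from 31997 genes by measured levels in CPM, a gene's reads per 1000000 reads counted in its library. The lowest P. formosa liver had to lie above the highest hybrid liver, and the P. formosa liver mean had to reach 1 CPM. The ratio of P. formosa to hybrid mean, each with 0.1 CPM added, had to reach 4 in liver and lie between 0.67 and 1.5 in brain and in ovary. These windows bound the means only, so a gene's levels could still differ without overlap in brain or ovary. The P. formosa fish were untreated 3-month-old females of 1 laboratory clone, siblings from a single mother. The hybrids were untreated 3-month-old females of 1 brood from a P. mexicana mother and a P. latipinna father. Messenger RNA was sequenced from brain and liver of 4 P. formosa and 6 hybrids and from the ovary of 4 fish of each group, 28 libraries in all. Each group stands for 1 clone or 1 brood, so tests cover only the spread among siblings.

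The Amazon molly is an all-female fish of hybrid origin that arose from a cross between relatives of the same 2 parental species. Its eggs need sperm of a related male to start developing, but the offspring are clones of the mother. The liver of a female fish makes plasma proteins and the yolk precursors that the ovary takes up, so a few transcripts can fill much of its messenger RNA. Genes used mainly in other organs are therefore measured in liver against a large background of other transcripts.

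The libraries held 32460110 to 46316691 counted reads, and the livers 40586409 to 46316691. In P. formosa livers 29.2% to 32.8% of reads fell on the 10 most counted genes, and in hybrid livers 25.6% to 41.4%. The table gives numeric gene IDs without names, so levels by organ and by fish take the place of gene functions, and few IDs are printed. The labelled organs could not be checked against marker genes for the same reason. In a piece of tissue, fewer cells of a type and less RNA per cell cannot be told apart.

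The median level of the 298 genes in P. formosa liver was 3.29 CPM in fish 3, 2.60 in fish 4, 6.55 in fish 11 and 5.42 in fish 12. In hybrid liver the median ran from 0.338 CPM in fish 12 to 0.715 CPM in fish 11, with 0.614 CPM as the middle of the 6 libraries. All P. formosa livers lay above all hybrid livers, and the P. formosa livers formed a higher and a lower pair. In brain the medians were 38.0 to 40.4 CPM in P. formosa and 35.4 to 37.7 CPM in hybrids, and in ovary 15.48 to 18.1 and 15.47 to 18.5 CPM. These levels chose the genes and are a description.

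**Figure D1:**
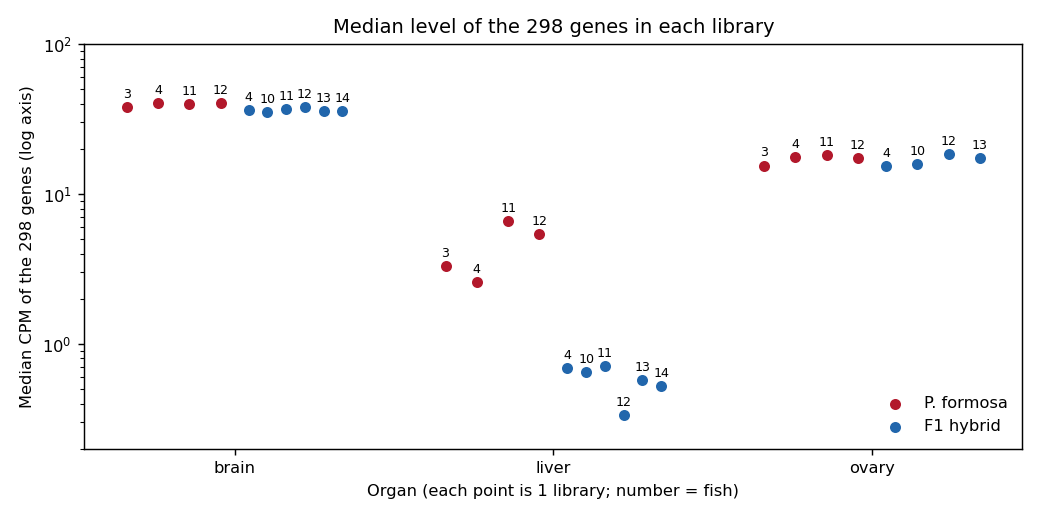
Median CPM of the 298 genes in each library (log axis), by organ, with P. formosa in red, F1 hybrids in blue and the fish number above each point. The 4 P. formosa livers lie between 2.60 and 6.55 CPM and the 6 hybrid livers between 0.338 and 0.715 CPM.

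The genes were scarce liver transcripts as a rule. Of the 298, 70 lay at 1 to 2 CPM on average in P. formosa liver, 87 at 2 to 5, 66 at 5 to 10, 50 at 10 to 20 and 25 above that, 5 of them above 50 CPM. Together they made up 2216, 2247, 4028 and 3404 CPM of P. formosa livers 3, 4, 11 and 12. In hybrid livers they made up 268 to 502.5 CPM. The 5 most counted genes gave 26.9% of the summed P. formosa level. All hybrid livers were under 1 CPM for 154 of the genes, while all P. formosa livers reached 1 CPM for 213.

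The liver ratio had a median of 5.89 and quartiles of 4.67 and 8.08. It lay between 4 and 5 for 101 genes and at 20 or more for 17. The 2 genes just inside the threshold had ratios of 4.007 and 4.025, and the 2 just outside it 3.992 and 3.986. The lowest P. formosa liver was at least 2 times the highest hybrid liver for 176 genes and under 1.2 times for 20, with a median of 2.18 times. Among all 14310 genes at 1 CPM or more in P. formosa liver, 21.3% had no overlap with P. formosa above the hybrids. With reads pooled over fish, the 3 genes with no count in any hybrid liver were at least 93.7-fold to 151-fold higher in P. formosa, taken against 3 counts over the hybrid livers. Their ratios by the rule were 11.9 to 18.5. One gene had 2 counts over the hybrid livers, a pooled ratio of 163 with a 95% exact interval from 44.7 to 1358 that covers counting error only. By the rule its ratio was 12.6. The pooled values leave out the spread among siblings.

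Of the 298 genes, 289 passed the filter on low counts in the liver test, and 289 were called higher in P. formosa (edgeR quasi-likelihood test, adjusted p under 0.05), against 24.2% of the 17402 genes tested. The rule used the same contrast, so nothing is read from that count. Across the 298 genes the mean levels in the 2 livers kept their order, with a Spearman rho of 0.87 between hybrid and P. formosa liver, in part because the rule bounds their ratio.

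**Figure D2:**
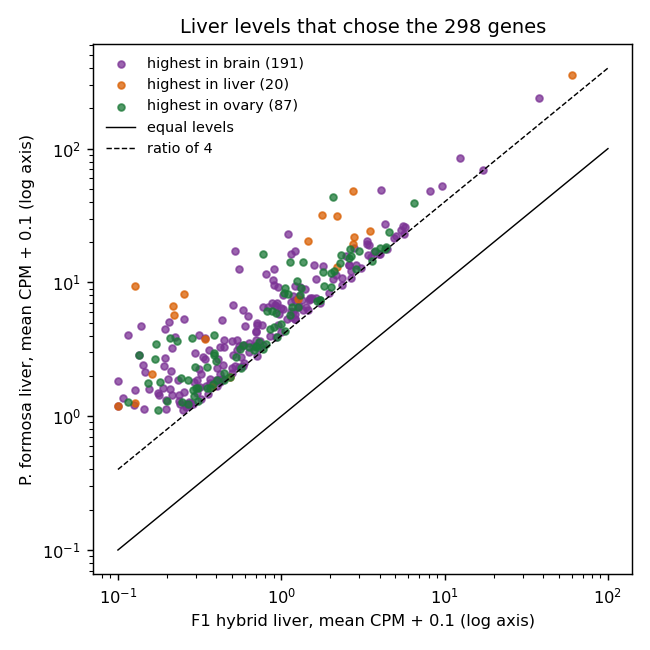
Mean liver level of each of the 298 genes in hybrids and in P. formosa (CPM + 0.1, log axes), coloured by the organ where the P. formosa level was highest, with lines for equal levels and for a ratio of 4. The points lie above the line of ratio 4 because the rule set it, and most are between 1 and 20 CPM in P. formosa liver.

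Gene 107836406 had the largest liver ratio, 73.9. Its P. formosa liver levels were 6.99 CPM in fish 3, 12.0 in fish 4, 7.96 in fish 11 and 10.5 in fish 12. The 6 hybrid livers together held 7 reads of it, from 0 to a highest level of 0.123 CPM in fish 11. It was nearly uncounted elsewhere: no brain of either group was above 0.139 CPM, and ovaries held 1 read in P. formosa and none in hybrids. The ratio depends on the 0.1 CPM added to each mean and on the scaling. Its log2 was 6.21 as reported, 4.22 with 0.5 CPM added, 6.96 with TMM factors and 7.07 with DESeq2 size factors.

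Gene 103131247 had the highest mean level in P. formosa liver. It stood at 369, 383, 361 and 315 CPM in P. formosa livers 3, 4, 11 and 12, and at 27.5 to 154 CPM in hybrid livers with a median of 36.2. The groups were far apart, and the hybrid liver 14 was the nearest to P. formosa. In ovary the means were 129 ± 30.5 CPM in P. formosa and 130 ± 89.5 CPM in hybrids (SD, n = 4 each). In brain they were 61.3 ± 7.11 (n = 4) and 41.6 ± 10.5 CPM (n = 6), close to the upper end of the allowed ratio at 1.47. The brains of the 2 groups did not overlap, at 51.7 to 68.8 CPM in P. formosa and 20.4 to 47.5 CPM in hybrids. Its log2 liver ratio was 2.56 with all hybrids and 3.63 against hybrids 4 and 10 alone.

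The liver criteria alone were met by 1164 genes, of which the 298 are 25.6%. The brain ratio of the others was mostly on the same side: of the 1164 genes, 749 had a brain ratio above 1.5 and 11 below 0.67. In ovary, 253 lay above the window and 194 below it. These counts are given without the share over all genes and are a description. The largest class, 411 genes, was above the window in brain and inside it in ovary. The same rule turned around, with hybrid liver above P. formosa liver, was met by 124 genes, out of 218 that met its liver criteria (56.9%). With P. formosa brains 4 and 11 left out of the brain mean, 495 genes met the rule, 286 of the 298 among them. Brain 11 lay furthest from its siblings. Its chi-square per degree of freedom against them was 154 to 275, and among brains 3, 4 and 12 it was 17.3 to 48.9. The part of single brains in the 749 ratios above the window was not tested.

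Most of the 298 genes were expressed more strongly in another organ than in liver. In P. formosa, 191 had their highest mean level in brain, 87 in ovary and 20 in liver. In hybrids, 184 of the 191 and 86 of the 87 had the same first organ. Of the 20 genes first in P. formosa liver, 6 were also first in hybrid liver, 6 were first in hybrid brain, 7 in hybrid ovary, and 1 had no count in any hybrid organ. The P. formosa brain level was at least 5 CPM for 270 genes, the ovary level for 205, and both for 199. Only 10 of the 298 were under 1 CPM in both brain and ovary of P. formosa. The rule used the liver levels and the windows, so these counts are descriptions, given without the share over all genes.

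The brain-first genes had a median of 60.1 CPM in P. formosa brain and 55.2 CPM in hybrid brain, and of 8.92 and 8.84 CPM in ovary. Their median liver level was 4.62 CPM in P. formosa and 0.596 CPM in hybrids. Within each gene, the P. formosa liver mean was 8.94% of the brain mean at the median and ranged widely, with a 10th percentile of 1.28% and a 90th of 39.7%. In hybrids the median was 1.23%. Brain thus stayed the organ of highest level for these genes in both groups, apart from 7 that were ovary-first in hybrids. The ovary-first genes had medians of 72.3 and 68.1 CPM in P. formosa and hybrid ovary, 3.80 and 0.677 CPM in liver, and a P. formosa liver level of 7.77% of ovary at the median (10th percentile 1.29%, 90th 23.9%).

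The liver-first genes had a higher liver ratio, with a median of 11.4 against 5.89 for brain-first and 5.69 for ovary-first genes. These medians are descriptions, because the rule used the ratio and a high P. formosa liver level helps a gene to be first in liver. Their median was 8.72 CPM in P. formosa liver, 0.777 CPM in hybrid liver, and 0.603 and 0.404 CPM in P. formosa brain and ovary.

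The rule set no limit on the level in brain against ovary, which was tested over all genes. The rule's liver limits and windows can still select on that level indirectly, and the genes tested as a whole were not held to them. The part of the rule in the differences below was not tested. In the 4 hybrids with both organs, 291 of the 298 genes passed the filter, and 176 (60.5%) were higher in brain, against 42.0% of the 23257 genes tested. The other direction was called for 76 (26.1%), against 43.0% of all genes. The median log2 difference, brain minus ovary, was 1.249 for the 298 genes and 0.007 for all genes tested. Differences over 4-fold numbered 122 towards brain (41.9%, against 25.3% of all) and 33 towards ovary (11.3%, against 21.9%). In P. formosa, 166 genes were higher in brain and 83 in ovary of 291 tested (57.0% and 28.5%), against 41.9% and 43.7% of 23562 genes, with medians of 1.011 and -0.063. Calls were by edgeR's quasi-likelihood test with an adjusted p under 0.05. The ratio window ties the 2 groups' brain and ovary levels together, so the P. formosa test is no second line of evidence.

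**Figure D3:**
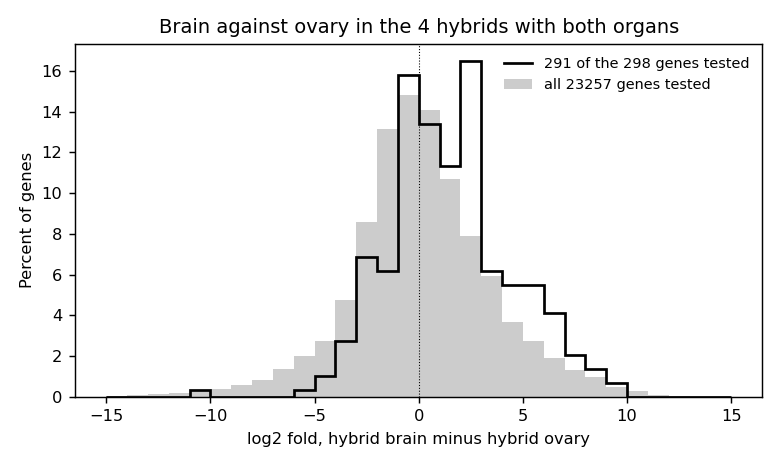
Share of genes (percent) by log2 difference between hybrid brain and hybrid ovary, for all 23257 genes tested (grey bars) and for the 291 of the 298 genes that were tested (black line). The line lies to the right of the grey bars, with medians of 1.249 and 0.007.

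The genes with the clearest organ difference show how far liver stood from the first organ. Gene 103141598, the brain-first gene with the lowest p in hybrids, had 377 ± 34.9 CPM in hybrid brain (SD, n = 6) and 355 ± 84.0 CPM in P. formosa brain (n = 4), where fish 11 was lowest at 237 CPM. Its ovary level was 1.26 to 2.05 CPM in hybrids and 1.14 to 2.41 CPM in P. formosa. In hybrids brain was higher by 7.95 ± 0.17 on the log2 scale (SE, edgeR, adjusted p = 6.4e-10). Its liver levels were 0.415, 0.464, 1.68 and 1.73 CPM in P. formosa 3, 4, 11 and 12, and 0.0436 to 0.246 CPM in hybrids. The liver groups did not overlap, and the P. formosa fish fell into the same higher and lower pair as the median of all 298 genes.

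Gene 103133907, also brain-first, combined a brain level near 180 CPM with a liver ratio of 32.9, or 5.04 on the log2 scale, and 4.25 with 0.5 CPM added in place of 0.1. In brain it had 185 ± 33.1 CPM in P. formosa (SD, n = 4) and 183 ± 17.7 CPM in hybrids (n = 6). In liver it stood at 12.2, 17.7, 18.5 and 19.8 CPM in P. formosa 3, 4, 11 and 12, and at 0.0901 to 0.783 CPM in hybrids, with a median of 0.401. Liver was thus above ovary in P. formosa, where ovary had 4.15 ± 0.472 CPM (n = 4), and below ovary in hybrids, where ovary had 4.35 ± 0.314 CPM (n = 4). Brain was higher than ovary in hybrids by 5.43 ± 0.13 on the log2 scale (SE, edgeR, adjusted p = 9.5e-10).

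Gene 103155656 was ovary-first, with 468 to 488 CPM in the 4 P. formosa ovaries and 488 to 527 CPM in the 4 hybrid ovaries. Its brain levels were 22.7 ± 3.95 CPM (SD, n = 4) and 20.7 ± 2.51 CPM (n = 6). In hybrids it was lower in brain by 4.56 on the log2 scale (log2 difference -4.56 ± 0.10, SE, edgeR, adjusted p = 6.8e-10). Its P. formosa livers had 7.96, 12.1, 18.0 and 17.8 CPM in fish 3, 4, 11 and 12, and hybrid livers had 0.518 to 3.69 CPM.

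Gene 103149781 had the highest P. formosa ovary mean of the 298 genes. It stood at 1098, 968, 1023 and 945 CPM in P. formosa ovaries 3, 4, 11 and 12, at 669 to 1083 CPM in hybrid ovaries, and under 1 CPM in all brains (log2 brain minus ovary in hybrids -10.32 ± 0.26, SE, edgeR, adjusted p = 1.2e-09). Its P. formosa livers had 0.530, 7.21, 1.58 and 5.72 CPM in fish 3, 4, 11 and 12, and hybrid livers had 0 to 0.503 CPM. The groups barely separated at P. formosa liver 3, and fish 4 and 12, not 11 and 12, were the high pair.

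**Figure D4:**
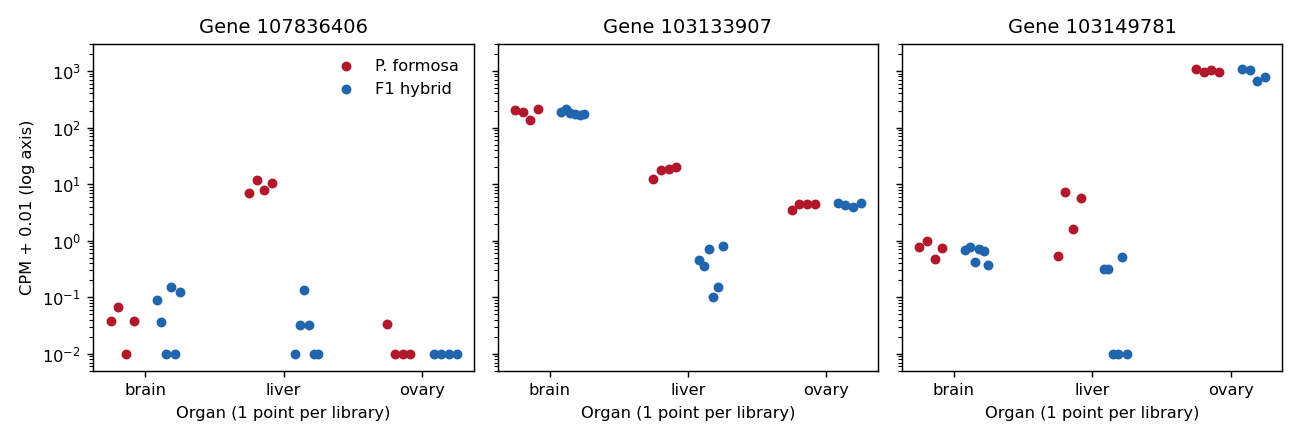
Level of 3 of the genes in every library (CPM + 0.01, log axis), with P. formosa in red and F1 hybrids in blue. Gene 107836406 is counted almost only in P. formosa liver, gene 103133907 is near 180 CPM in brain, and gene 103149781 is near 1000 CPM in ovary, with P. formosa livers at 0.530 to 7.21 CPM.

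Siblings of the clone differed among themselves in the liver levels of these genes. Livers 11 and 12 were both above livers 3 and 4 for 220 of the 298 genes (73.8%), and both below for 11. Among all 14310 genes at 1 CPM or more in P. formosa liver, the shares were 38.4% and 13.3%. The log2 difference of the mean of fish 11 and 12 from that of fish 3 and 4 had a median of 0.88 over the 298 genes and of 0.14 over all of those genes. In brain of the same fish the median for the 298 genes was -0.03, and in ovary 0.07. Among the 866 genes that met the liver criteria but not the windows, 73.1% had livers 11 and 12 on top, a share close to that of the 298. The rule used these same 4 liver levels, so the liver shares and their excess over all genes are a description. The 2 pairs of fish were seen in the data and are not tested. The library numbers of fish 3 and 4 adjoin, as do those of fish 11 and 12, and the labels do not call either a batch.

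By organ group, livers 11 and 12 were on top for 151 of 191 brain-first genes (79.1%), 62 of 87 ovary-first genes (71.3%) and 7 of 20 liver-first genes (35.0%). The number of the 298 genes at 1 CPM or more was 242 and 230 in livers 3 and 4, and 296 and 294 in livers 11 and 12. The same number over all genes was 13788 and 13609, and 14639 and 14476. Against all 6 hybrids, livers 3 and 4 alone gave a median ratio of 3.92, and 143 of the 298 genes reached 4 and 294 reached 2. Livers 11 and 12 alone gave 7.65, with 290 genes at 4 or more. Of all 14310 genes at 1 CPM or more in P. formosa liver, 849 reached 4 and 2507 reached 2 with livers 3 and 4. With livers 11 and 12, 1689 of them reached 4. With livers 11 and 12 left out of the rule, 147 genes met it, 128 of the 298 among them, and with livers 3 and 4 left out, 543 met it, 288 of the 298 among them.

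Other genes that are abundant in brain or ovary give a scale for these liver values. Genes at 100 CPM or more in hybrid brain and under 1 CPM in hybrid liver numbered 747, of which 42 are among the 298. The 705 others had a median level in P. formosa livers 3, 4, 11 and 12 of 0.0769%, 0.119%, 0.156% and 0.119% of the P. formosa brain level. In hybrid livers their median was 0.0198% to 0.0379% of the hybrid brain level. Their median liver ratio was 1.69, at median levels of 0.258 and 0.0789 CPM, where the 0.1 CPM added to each mean lowers a ratio. Of the 705, 50 reached 4 and 268 were under 1.5. The limit of 1 CPM was set in hybrid liver alone, which favours low hybrid levels, so nothing is read from these liver differences. For the 42 genes within the same limits the medians were 0.652%, 0.737%, 2.51% and 1.87% in the P. formosa livers and 0.0523% to 0.149% in hybrid livers. The rule asked the 42 for 1 CPM in P. formosa liver and a ratio of 4, and the 705 for neither, so nothing is read from the difference between them. Livers 11 and 12 were the 2 highest for 35 of the 42 (83.3%) and for 237 of the 705 (33.6%).

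Genes abundant in ovary had another order of fish. The share of all liver genes with livers 4 and 12 on top is not given, so this order is a description. Genes at 100 CPM or more in hybrid ovary and under 1 CPM in hybrid liver numbered 338, of which 20 are among the 298. The 318 others had medians of 0.105%, 0.760%, 0.228% and 0.551% of the P. formosa ovary level in livers 3, 4, 11 and 12, and of 0.0284% to 0.127% of the hybrid level in hybrid livers. Their median liver ratio was 3.81, and 147 of the 318 reached 4 while 24 were under 1.5. Here too the limit of 1 CPM was set in hybrid liver alone, so nothing is read from these liver differences. The 20 genes within the same limits had medians of 0.568%, 1.11%, 2.30% and 2.36% in P. formosa livers 3, 4, 11 and 12, and of 0.0677% to 0.189% in hybrid livers. Livers 4 and 12 were the 2 highest for 243 of the 318 genes (76.4%), and for 7 of the 20 (35.0%), while livers 11 and 12 were for 11 of the 20 (55.0%). Among all 87 ovary-first genes, 9 (10.3%) had livers 4 and 12 on top, gene 103149781 among them. The part of brain and ovary transcripts in the liver levels of the 298 genes was not tested.

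**Figure D5:**
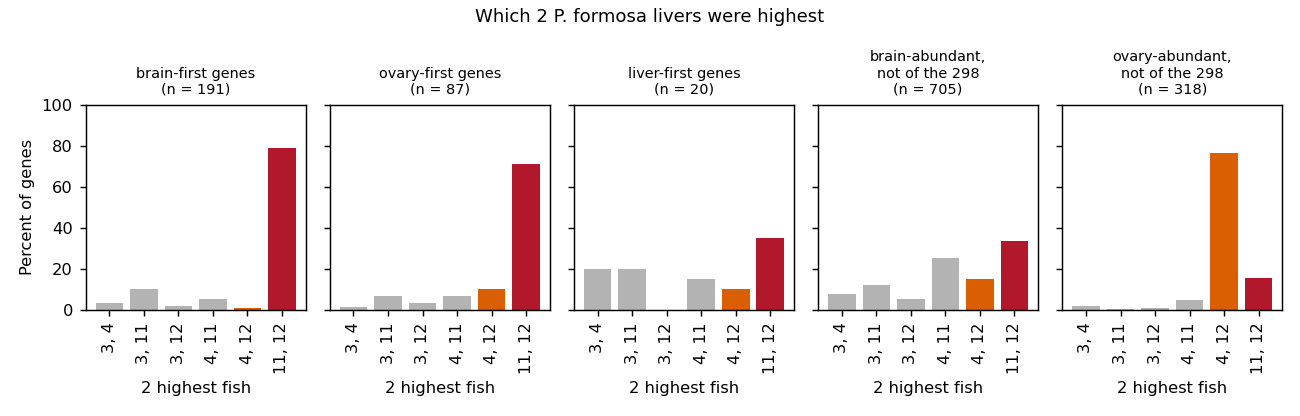
Percent of genes (vertical axis) for which each pair of P. formosa livers was the highest pair, for the brain-first, ovary-first and liver-first genes of the 298 and for brain-abundant and ovary-abundant genes outside them. Fish 11 and 12 (red) lead in 79.1% of brain-first and 71.3% of ovary-first genes, and fish 4 and 12 (orange) in 76.4% of the ovary-abundant genes outside the 298.

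Across the 191 brain-first genes, the liver difference between the groups, in CPM, had a Spearman rho of 0.35 with the P. formosa brain level and 0.47 with the ovary level. Across the 87 ovary-first genes rho was 0.27 with the ovary level and 0.37 with the brain level. In both groups it was larger for the organ that was not first. These are descriptions across genes of the same libraries. Longer genes give more reads in every organ, and the part of gene length in these values was not tested.

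Among hybrid livers, 1 library was low for these genes. Hybrid liver 12 had 59 of the 298 genes at 1 CPM or more, and the other 5 had 94 to 121. Over all genes it was the lowest too, with 12074 at 1 CPM or more against 12514 to 12946 in the others. It also had the most concentrated library, with 41.4% of reads in its 10 most counted genes, against 25.6% to 30.8% in the others. The part of this concentration in its low levels was not tested. Without hybrid fish 12, 287 genes met the rule and 258 of the 298 were among them.

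By library number the samples form 2 series with a gap between them: all P. formosa libraries with hybrids 4 and 10 come first, then hybrids 11 to 14. The rule did not compare the hybrid livers of the 2 series. It did hold the highest hybrid liver below the lowest P. formosa liver, which can limit the difference between the series. The part of the rule in the shares below was not tested. Of 242 of the 298 genes that passed the filter, 13 were higher in the first series (5.37%) and 2 in the second (0.826%), against 5.64% and 4.6% of the 16922 genes tested (edgeR, adjusted p under 0.05). The median log2 difference, first minus second, was 0.425 for the 298 genes and -0.004 for all genes. Without hybrid 10, and without hybrid 4, the median log2 difference of the 298 genes stayed above that of all genes. Either fit leaves 1 library of the first series, which is assumed to vary like the second, so no counts of called genes are given for it. Without hybrid 14, 4 of the 298 genes were called higher in the first series and 2 in the second. Of all 16784 genes, 290 were then higher in the second series, and fewer than with all libraries in the first. Without hybrid 12 the counts were 13 and 4, with 940 and 831 of all 16826 genes.

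Higher in the first series, gene 103140101 had 5.33 and 4.86 CPM in hybrid livers 4 and 10 and 1.18, 0.901, 1.99 and 1.16 CPM in hybrid livers 11 to 14 (log2 difference 1.95 ± 0.33, SE, edgeR, adjusted p = 0.012). Gene 103138844 had 5.55 and 7.91 CPM against 1.59 to 2.51 CPM (1.69 ± 0.29, adjusted p = 0.014). In the other direction, gene 103144333 had 2.68 and 1.22 CPM in hybrid livers 4 and 10 and 6.49 to 7.39 CPM in the second series (-1.86 ± 0.29, edgeR adjusted p = 0.0099). Gene 103131400 had 3.52 and 2.09 CPM against 6.04 to 9.63 CPM (-1.56 ± 0.26, adjusted p = 0.012). For all 4 genes the hybrid libraries of the 2 series did not overlap. The genes were picked by this same contrast, so nothing is read from that.

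Within the first series the P. formosa livers can be set against hybrids 4 and 10 alone. The median ratio of the 298 genes was then 5.33, the lowest was 2.25, and 230 of the genes reached 4. Against hybrids 11 to 14 the median was 6.57, the lowest 3.37, and 286 reached 4. The median over all 14310 genes was 1.17 in the first case and 1.16 in the second, and 1461 and 1534 of them reached 4. For gene 103138844 the log2 ratio was 2.20 with all hybrids, 1.33 against the first series and 2.97 against the second.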

How the data were processed

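Brain, liver and ovary messenger RNA was sequenced in 28 libraries, per the labels. The authors deposited 1 table of raw read counts per gene, 31997 genes by 28 libraries, without normalization, and 0 columns were left unused. The submitters' processing notes name TopHat2 and featureCounts. Settings, genome build, annotation and strand handling were each not given in the sources used here. Counts of overlapping and near-identical genes are therefore uncertain. Reads of hybrids and of the clone may also be taken up unequally by a reference.

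Groups and fish numbers came from the sample titles. The members were found with CPM from plain library totals. The members and lists were chosen with earlier results of these data known. Gene IDs were not paired with names, so the marker and pathway lists and the choice of genes by family could not be run, and at most 2 IDs per direction and comparison were printed. These were the largest liver ratio, the highest P. formosa liver mean, and the lowest p in each direction between brain and ovary in hybrids. The 4 genes of the library series and the organ groups were chosen after their values were seen.

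Tests used edgeR 4.0.16 in R 4.3.3 on all genes: filterByExpr, TMM, robust quasi-likelihood test, Benjamini-Hochberg adjustment, threshold 0.05. SE is the log2 difference divided by the square root of F. DESeq2 1.42.0, RLE factors, no filter, each fish left out, a block and the library series were alternatives. The tests were checked on simulated data. Totals of 40586409 to 46316691 reads make 1 CPM more than 40 reads in liver, and intervals cover counting error only. Between libraries of a group, chi-square per degree of freedom was at least 12.7, so none was counted as a repeat.

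The fish number pairs brain with ovary, since both were taken from that fish. Correlations of same-fish deviations from the group means were -0.0574 to 0.172 in P. formosa and 0.0942 to 0.176 in hybrids.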

Additional observations from a re-analysis of the deposited data

Results flagged for a closer look

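Single libraries stood away from the rest of their group in 9 of 77 sets of libraries examined, by the gap to the nearest library over the range. For values that vary smoothly, chance alone gives such a gap in about 1 in 20 sets, and sets of the same library are not independent. A gene with 1 read in a group always gives such a gap, as gene 107836406 did in P. formosa ovary. Among values over all 298 genes, P. formosa brain 3 had the lowest median level of its group (38.0 CPM), P. formosa brain 11 the lowest summed level (27979 CPM), P. formosa ovary 3 the lowest summed level (12911 CPM) and hybrid liver 12 the lowest summed level (268 CPM). For single genes, P. formosa ovary 3 held the only ovary read of gene 107836406 (0.0233 CPM), and hybrid liver 11 had its highest hybrid level (0.123 CPM). Hybrid brain 11 was low for gene 103131247 (20.4 CPM), P. formosa ovary 3 was low for gene 103133907 (3.45 CPM), and hybrid ovary 10 was low for gene 103155656 (488 CPM).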

How the results depend on the processing

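The number of genes that met the rule was 298. It was 346 with TMM factors, 370 with DESeq2 size factors and 341 with no offset, with 264, 254 and 286 of the 298 among them. It was 168 with an offset of 0.5 CPM, 166 with a narrower window for brain and ovary, from 0.8 and 495 without P. formosa brains 4 and 11. Chosen after seeing the data, it was 543 without P. formosa livers 3 and 4 and 147 without livers 11 and 12. Leaving out each fish in turn gave 265 to 387 genes. With hybrids of the first series only it was 383, with 185 of the 298 among them, and with the second 353, with 231. The cause of these moves was not tested. TMM factors moved the median log2 liver ratio of all genes at 1 CPM or more by -0.14 and DESeq2 size factors by -0.17, while the median of the 298 genes was 2.56, 2.51 and 2.50 in the 3 scalings.

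Between the series in hybrid liver, DESeq2 called 25 genes higher in the first and 6 in the second, and leaving out each library gave 0 to 19 and 0 to 4 (19 without hybrid 11). The cause was not tested. With the fish as a replicate block, the counts between brain and ovary were 178 and 78 of 291 in hybrids and 165 and 83 of 291 in P. formosa. No count moved by over 1.5 times. Of all genes, this block fit called 9800 and 9925 of 23257 in hybrids and 9558 and 10293 of 23562 in P. formosa. Numbers shared between P. formosa and hybrid livers name different animals. With that number as a replicate block 280 of 289 genes were called higher in P. formosa liver (2773 of all 17402), and 269 with a term for the series (3229 of all 17402), from which nothing is read because the rule used this contrast. The same-numbered livers correlated at 0.0137 to 0.0728 in their deviations. In all, 72 of 85 alternative counts stayed within 1.5 times the reported one.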
